A study of Mus musculus with 89 samples.

Results

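Esrrb and Nr5a2 are nuclear receptors of mouse embryonic stem cells (ESCs), and each belongs to a small family. Esrrb, Esrra and Esrrg are the oestrogen-related receptors, and Nr5a2 and Nr5a1 are the Nr5a receptors. The 5 genes were taken by name from tables that held 54146 mouse genes. The question asked of them was how the mRNA of each receptor behaved when Esrrb, Nr5a2 or both were lost, and whether a paralogue was present at a higher level when its relative was missing.

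Both families are orphan receptors that bind DNA mostly as monomers. Their first zinc finger reads the AGGTCA half-site, and a stretch behind the second finger reads the bases in front of it, so that both families recognise the extended half-site TCAAGGTCA. Esrrb and Nr5a2 belong to the network of transcription factors (TFs) that maintains naive pluripotency, and Nr5a2 is also known for regulating Pou5f1 in the early embryo and bile acid synthesis in the liver. Esrra and Esrrg are best known as regulators of mitochondrial energy metabolism, and Nr5a1 (steroidogenic factor) as a regulator of adrenal and gonadal development.

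All libraries came from EKOiE ESCs or their derivative EKOiE NrKO. In EKOiE cells the endogenous Esrrb gene is knocked out and a Flag-tagged Esrrb cDNA is expressed from a doxycycline (Dox)-inducible transgene, so the control cells carry these alleles too. EKOiE NrKO cells additionally carry Nr5a2 alleles in which exon 4 is disrupted, and they are a clonal line, for which the study's supplement names clone 4 in its account of RNA-seq while the labels name none. The state +E+N was EKOiE with Dox at 1 µg/ml, −E was EKOiE after 2 days without Dox, −N was EKOiE NrKO with Dox, and −E−N was EKOiE NrKO after 2 days without Dox. Each state was sequenced in serum with the cytokine LIF (FCS/LIF, n = 2 libraries) and in serum-free medium with LIF and inhibitors of MEK and glycogen synthase kinase (2i/LIF, n = 3), in both cases without feeder cells. Because −N and −E−N cells come from a clonal line of their own, the loss of Nr5a2 and other properties of that line cannot be told apart. The 2 media were separate cultures, so medium and culture cannot be told apart either.

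The finger that marks the families also marks the Nr5a2 lesion. Its coding DNA is shown for each receptor, from the first to the fourth zinc-binding cysteine codon, with capitals at each base that differs from Esrrb (GENCODE M21, mm10).
Esrrb, chr12:86470465-86470527 (+): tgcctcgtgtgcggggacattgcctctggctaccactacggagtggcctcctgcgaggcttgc
Esrra, chr19:6920091-6920153 (−): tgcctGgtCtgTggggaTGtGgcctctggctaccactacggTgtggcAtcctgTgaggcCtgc
Esrrg, chr1:188043659-188043721 (+): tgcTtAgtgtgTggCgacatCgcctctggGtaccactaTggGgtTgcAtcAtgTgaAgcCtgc
Nr5a1, chr2:38710659-38710721 (−): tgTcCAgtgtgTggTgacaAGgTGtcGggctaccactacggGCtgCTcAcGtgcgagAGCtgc
Nr5a2, chr1:136944962-136945024 (−): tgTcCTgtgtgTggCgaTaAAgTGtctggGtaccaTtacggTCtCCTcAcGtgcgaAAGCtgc
Of 63 bases, 10 differed between Esrrb and Esrra, 14 between Esrrb and Esrrg, and 23 between Esrrb and Nr5a2, while 10 differed between Nr5a1 and Nr5a2. Over the 168 coding bases that span both fingers, Esrrb shared 85.7% with Esrra and 57.1% with Nr5a2, and Nr5a2 shared 78.0% with Nr5a1. The longest stretch identical in any annotated transcript of any pair of the receptors was 22 bases, in Esrrb and Esrra, which is short beside the paired reads of these libraries.

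Exon 4 of the transcript Nr5a2-205 (chr1:136944959-136945077, minus strand, 119 bases) holds the whole first finger, shown here in capitals because it is the exon the mutation targets.
Nr5a2 exon 4: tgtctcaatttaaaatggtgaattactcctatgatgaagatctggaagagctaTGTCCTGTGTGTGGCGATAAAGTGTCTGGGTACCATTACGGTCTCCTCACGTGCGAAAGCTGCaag
All 5 annotated protein-coding Nr5a2 transcripts contain this exon. The deposited tables count reads over the whole gene, so transcripts of the disrupted alleles were still counted as Nr5a2, and the Nr5a2 count does not check the −N label. Similarly, the Esrrb count sums transcripts of the transgene and of the knocked-out locus, so it does not give the level of functional Esrrb.

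The libraries held 36514172 to 45443379 counts in FCS/LIF and 26653035 to 32526534 in 2i/LIF. Levels within a gene are given as CPM, which are counts scaled to library total and by trimmed means of M values (TMM), and levels between genes as TPM, which are also scaled to transcript length. A gene was called when the edgeR quasi-likelihood test gave a Benjamini-Hochberg adjusted p under 0.01 and a fold change over 1.5, among genes with at least 20 counts in every library of 1 state or more. Esrrb, Nr5a2 and Esrra passed this filter in both media, and Esrrg and Nr5a1 in neither. The 7 ESC marker mRNAs, Pou5f1 and Sox2 among them, were present in all libraries, and their summed level moved with the states, from 7522 to 7688 TPM in +E+N to 4290 to 4675 in −E−N in FCS/LIF, and from 7363 to 7620 to 2719 to 3694 in 2i/LIF. Dppa5a held most of the 2i/LIF sum, from a mean of 4929 TPM in +E+N to 1890 in −E−N, while Pou5f1 fell less, from 1370 to 990 TPM. The summed level of 5 trophectoderm markers moved the other way, from 15.3 to 17.5 TPM in +E+N to 48.3 to 68.8 in −E−N in FCS/LIF and from 4.38 to 5.88 to 25.1 to 33.4 in 2i/LIF, and none of the 5 was at 0 in all libraries of a group. Its members did not move together, since in 2i/LIF Cdx2 held most of the −E−N sum (from a mean of 0.797 TPM in +E+N to 27.1) while Eomes was called lower (3.64 to 0.917 TPM, edgeR, adjusted p = 0.000327). The sum of 4 primed epiblast markers was 226 to 232 TPM in +E+N, 289 to 320 in −E−N and highest in the −E libraries (370 to 371) in FCS/LIF, and 28.7 to 36.0 in +E+N and 65.8 to 81.4 in −E−N in 2i/LIF. Dnmt3b made up most of this sum, whereas Otx2 was called lower in −E−N, from a mean of 28.3 to 9.54 TPM in FCS/LIF and from 1.10 to 0.03 TPM in 2i/LIF (edgeR, adjusted p = 1.54e-05 and 4.47e-05). The sums of 4 primitive endoderm markers and of 4 fibroblast markers stayed at or below 8.63 TPM and 6.41 TPM in every library. The part of these shifts in the results for the receptors was not tested, and in bulk libraries fewer cells of a type and less RNA per cell cannot be told apart.

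Esrrb was by far the most abundant of the 5 receptors in cells with Dox. In +E+N cells it stood at 206 ± 60.8 TPM in FCS/LIF (SD, n = 2) and 237 ± 45.0 TPM in 2i/LIF (SD, n = 3), against 13.3 ± 0.615 and 21.8 ± 2.43 TPM for Nr5a2 and 13.4 ± 0.332 and 22.8 ± 3.07 TPM for Esrra. Nr5a2 and Esrra came next in the order, and their libraries overlapped in both media. Esrrg stayed at or below 0.04 TPM and Nr5a1 at or below 0.11 TPM in every library.

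**Figure D1:**
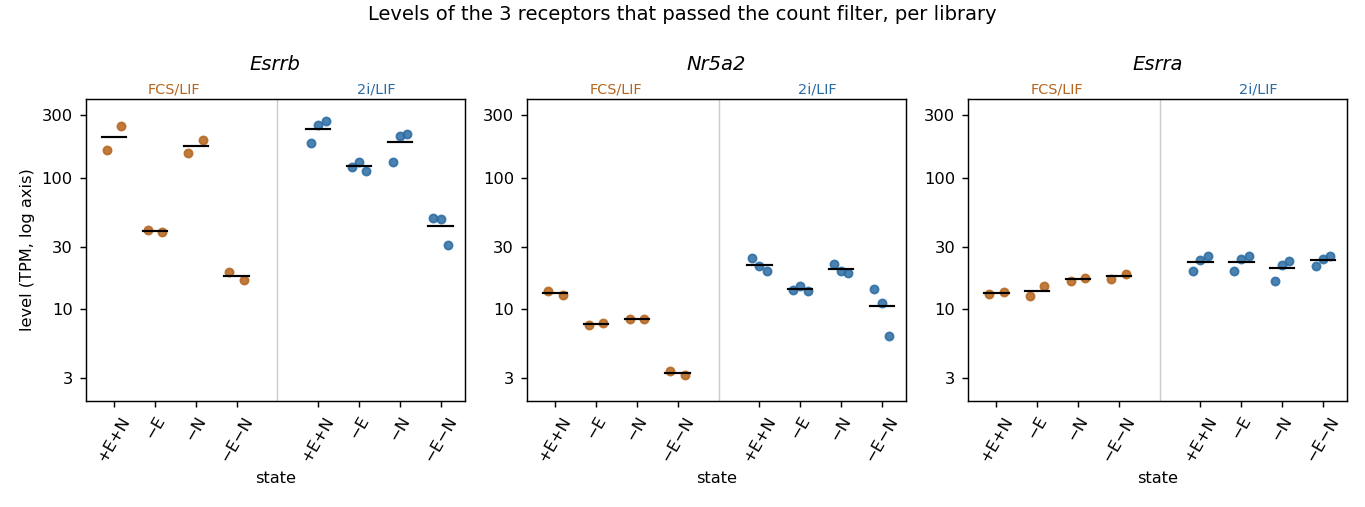
Level of Esrrb, Nr5a2 and Esrra in TPM (log axis) in each library (points) of the 4 states in FCS/LIF (brown, n = 2) and 2i/LIF (blue, n = 3), with the group mean as a black line. Esrrb in −E−N lay between 16.8 and 19.2 TPM in FCS/LIF and between 31.1 and 49.9 TPM in 2i/LIF, below every other state of the same medium, while Esrra stayed between 12.5 and 25.5 TPM throughout.

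In FCS/LIF, 2 days without Dox lowered Esrrb mRNA to 22.3% of its +E+N level. The libraries held 271 and 352 CPM in +E+N and 74.2 and 65.1 CPM in −E, so the groups were far apart. The log2 difference was −2.18 ± 0.134 (SE, edgeR, adjusted p = 2.75e-05). Nr5a2 fell as well, from 39.8 and 36.1 CPM to 19.6 and 19.2 CPM. This was 51.2% of the control level and a log2 difference of −0.98 ± 0.0851 (edgeR, adjusted p = 0.000133). The comparisons of −E, −N and −E−N with +E+N share the same control libraries. In this first one 2 of the 3 receptors tested were called, both lower, where 5.76% of all 15636 genes tested were called and 2.53% were called lower.

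Esrra, the close paralogue of Esrrb, was not called higher when Esrrb was withdrawn. It stood at 21.8 and 21.8 CPM in +E+N and at 18.3 and 19.2 CPM in −E, a log2 difference of −0.24 with a 95% confidence interval from −0.47 to −0.0009 (edgeR, adjusted p = 0.147). The direction depended on the unit, since the same comparison gave +0.04 in log2(TPM + 1) (limma, adjusted p = 0.813).

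In FCS/LIF cells that lacked functional Nr5a2 but had Dox, no receptor was called by edgeR or DESeq2, while 0.173% of all genes were called by edgeR and 2550 genes had an unadjusted p under 0.05. Esrrb was at 219 and 259 CPM in −N, below both +E+N libraries, with a log2 difference of −0.40 ± 0.127 (edgeR, adjusted p = 0.156). The Nr5a2 count, which includes transcripts of the disrupted alleles, was 27.1 and 25.5 CPM, a log2 difference of −0.55 ± 0.0837 (edgeR, adjusted p = 0.0212) that missed the threshold although the groups did not overlap. Esrra was at 25.5 and 25.7 CPM (+0.21 ± 0.103, edgeR, adjusted p = 0.357).

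Esrrb and Nr5a2 reached their lowest levels in FCS/LIF when both TFs were lost. Esrrb held 31.3 and 28.9 CPM in −E−N, which was 9.66% of the +E+N level (log2 difference −3.39 ± 0.143, edgeR, adjusted p = 1.16e-06). Nr5a2 held 10.2 and 9.17 CPM, or 25.6% of the control (−1.99 ± 0.0901, edgeR, adjusted p = 1.61e-06). The 2 called receptors stood against 18.8% of all genes called and 6.4% called lower in this comparison. Esrra, at 22.1 and 27.5 CPM, was not called (+0.17 ± 0.103, edgeR, adjusted p = 0.211).

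The −E−N cells also allowed each loss to be examined on the background of the other. Withdrawal of Dox in NrKO cells (−E−N against −N) lowered Esrrb by 2.99 on the log2 scale and Nr5a2 by 1.44 (edgeR, adjusted p = 4.34e-06 and 1.77e-05), where 10.1% of all genes were called and 3.49% were called lower. In cells without Dox, the NrKO line (−E−N against −E) had lower Esrrb (−1.21 ± 0.137, edgeR, adjusted p = 0.000941) and lower Nr5a2 (95% interval of the log2 difference −1.21 to −0.80, edgeR, adjusted p = 0.000451), where 5.05% were called and 1.53% were called lower. Since no transgene was induced in either of these 2 states, the Esrrb difference lay in the mRNA that remained without Dox, which was 39.5 ± 0.856 TPM in −E (SD, n = 2) against 16.8 and 19.2 TPM in the −E−N libraries. The Esrrb call was lost without −E replicate 1 (adjusted p = 0.0133) or without −E−N replicate 2 (adjusted p = 0.0164, both edgeR), with the log2 difference still at −1.13 and −1.17. With all 20 libraries in one fit, Nr5a2 missed the threshold for −E against +E+N and −E−N against −E (edgeR, adjusted p = 0.0139 and 0.0141). Esrra came closest to a call here, at +0.41 ± 0.104 (95% interval 0.17 to 0.64, edgeR, adjusted p = 0.0257).

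In 2i/LIF, Esrrb mRNA differed less between −E and +E+N than in FCS/LIF on the scale of counts. The libraries held 515, 608 and 604 CPM in +E+N and 441, 433 and 380 CPM in −E, so the groups did not overlap, yet 72.6% of the level remained in CPM and the log2 difference of −0.46 ± 0.158 was not called (edgeR, adjusted p = 0.116). In TPM the −E level was 51.8% of the control, so the size of this difference depended on the unit. Nr5a2 was at 80.2, 70.6 and 61.8 CPM in +E+N and at 52.2, 46.6 and 42.2 CPM in −E, again without overlap, with a log2 difference of −0.59 ± 0.209 (edgeR, adjusted p = 0.129). Thus none of the 3 receptors tested was called, where 1.55% of all 14355 genes were, and at an unadjusted p under 0.05 the test gave 2917 genes, Esrrb and Nr5a2 included. DESeq2 called none of the receptors either. A replicate block in the edgeR fit did call Nr5a2 (−0.59, edgeR, adjusted p = 0.00573), though the labels do not say what the replicate numbers mark.

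The −N state in 2i/LIF was also without a called receptor by edgeR or DESeq2, where edgeR called 3.65% of all genes and gave 3594 genes an unadjusted p under 0.05. Esrrb was at 415, 530 and 526 CPM in −N, with 2 libraries inside the +E+N range (−0.24 ± 0.157, edgeR, adjusted p = 0.395). The Nr5a2 count was 78.4, 64.3 and 63.9 CPM, within the +E+N range in all 3 libraries (−0.05 ± 0.207, 95% interval −0.50 to 0.40, edgeR, adjusted p = 0.924). The transcripts of the disrupted Nr5a2 alleles were thus counted within the range of the intact gene.

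Both receptors were lower in −E−N in 2i/LIF too. Esrrb was at 171, 161 and 104 CPM in −E−N, 25.2% of the +E+N level (−1.97 ± 0.164, edgeR, adjusted p = 2.22e-06). Nr5a2 was at 46.1, 34.3 and 20.9 CPM, 47.7% of the control (−1.05 ± 0.211, edgeR, adjusted p = 0.00165). Replicate 3 was the lowest for both genes. The 2 calls stood against 18.6% of all genes called and 9.56% called lower. Without Dox, the NrKO line again had lower Esrrb than the Nr5a2-intact line (−E−N against −E, −1.51 ± 0.162, edgeR, adjusted p = 2.87e-05, with 13.1% of all genes called and 6.21% called lower), whereas Nr5a2 was not called (−0.47 ± 0.211, edgeR, adjusted p = 0.113). Against −N, both were called lower in −E−N (Esrrb −1.74 ± 0.162, edgeR, adjusted p = 3.14e-05, and Nr5a2 −1.01 ± 0.211, edgeR, adjusted p = 0.00582), with 6.76% of all genes called and 3.36% called lower. The Nr5a2 call was lost when any 1 of 5 libraries was left out (−N replicate 1, 2 or 3, +E+N replicate 2 or −E−N replicate 2, adjusted p from 0.0103 to 0.0208) and when the 2 states were fitted alone (adjusted p = 0.0231).

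**Figure D2:**
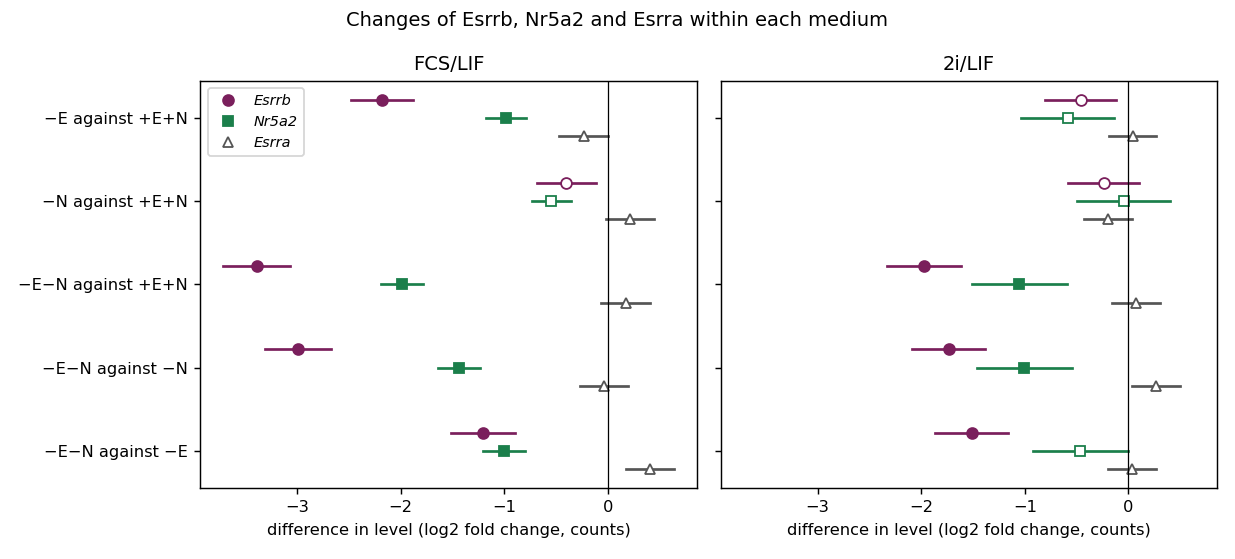
Log2 fold change of Esrrb (circles), Nr5a2 (squares) and Esrra (triangles) with 95% confidence intervals for the 5 comparisons between states in each medium, from counts in the edgeR fit, where filled symbols were called. Esrrb ran from −3.39 to −0.40 in FCS/LIF and from −1.97 to −0.24 in 2i/LIF, and no Esrra symbol is filled.

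The joint loss was compared with the sum of the 2 single losses by the interaction term. For Esrrb this term was −0.81 ± 0.186 in FCS/LIF (edgeR, adjusted p = 0.247) and −1.28 ± 0.224 in 2i/LIF (edgeR, adjusted p = 0.0186), so in both media the point estimate lay below the sum of the single effects but was not called. No receptor was called in either medium, where the FCS/LIF fit called 0.032% of genes and the 2i/LIF fit 0.307%, and 1384 and 1962 genes had an unadjusted p under 0.05. DESeq2 did call Esrrb in both media, at −0.83 (adjusted p = 0.000412) and −1.28 (adjusted p = 4.49e-06), and all 20 libraries in one edgeR fit called it in 2i/LIF (−1.29, adjusted p = 0.00368). A replicate block also called Esrrb in 2i/LIF (−1.28, edgeR, adjusted p = 0.00244). With Dox the Esrrb count sums the transgene and the knocked-out locus, while without Dox no transgene was induced. In this term a joint effect of the 2 losses and the change in the source of Esrrb mRNA cannot be told apart. The terms for Nr5a2 were −0.46 ± 0.123 and −0.42 ± 0.296, and those for Esrra +0.19 ± 0.146 and +0.23 ± 0.150, with edgeR adjusted p between 0.318 and 0.727.

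The starting levels differed between the media. In +E+N cells, Esrrb was 0.89 ± 0.175, Nr5a2 0.90 ± 0.210 and Esrra 0.80 ± 0.115 higher on the log2 scale in 2i/LIF than in FCS/LIF (edgeR over 20 libraries, adjusted p = 0.000336, 0.00138 and 1.56e-05). All 3 were called, in a comparison in which 34.7% of the 16147 genes tested were called and 17.2% of those tested were called higher. For Esrrb this depended on the unit, since log2(TPM + 1) gave +0.22 (limma, adjusted p = 0.463), and Nr5a2 gave +0.67 (limma, adjusted p = 0.0115). The Esrrb call was lost without FCS/LIF +E+N replicate 1 (+0.70, adjusted p = 0.0128) and the Nr5a2 call without FCS/LIF +E+N replicate 2 (+0.82, adjusted p = 0.0227, both edgeR).

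The response of Esrrb to Dox withdrawal differed between the media. The −E response was 1.70 ± 0.244 less negative in 2i/LIF than in FCS/LIF on the log2 scale (edgeR, adjusted p = 0.00108, with 1.06% of all genes called and 0.471% called in this direction), and the −E−N response was 1.39 ± 0.246 less negative (edgeR, adjusted p = 0.000636, with 13.2% called and 5.93% in this direction). The first call was lost without FCS/LIF −E replicate 2 (+1.61, edgeR, adjusted p = 0.0169). On TPM neither passed, with differences of +1.39 and +0.97 in log2(TPM + 1) (limma, adjusted p = 0.0260 and 0.0464). Nr5a2 did not differ between media by the threshold in −E (+0.37 ± 0.293, 95% interval −0.25 to 0.99, edgeR, adjusted p = 0.574) or in −E−N (+0.90 ± 0.301, edgeR, adjusted p = 0.0389). With a replicate block the −E−N difference of Nr5a2 was called (+0.87, edgeR, adjusted p = 0.00190). For the −N response, where 0.743% of all genes were called, and 2476 had an unadjusted p under 0.05, no receptor was called, with Esrrb at +0.15 ± 0.241, Nr5a2 at +0.49 ± 0.291 and Esrra at −0.42 ± 0.160 (edgeR, adjusted p = 0.844, 0.472 and 0.192).

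The gap between counts and TPM for Esrrb was examined through the mean transcript length that the 2 tables together imply. Count divided by TPM is proportional to the effective length that the quantification assigned to a gene. It was scaled to bases on 589 genes with 1 annotated transcript, with a median error of at most 0.0199% on these same genes. This error describes the scaling only and does not check the length of a gene with several transcripts, such as Esrrb. The annotated protein-coding transcripts of Esrrb are of 2 size classes, with Esrrb-203 and Esrrb-204 at 4196 and 4300 bases and Esrrb-201, Esrrb-202 and Esrrb-206 at 2136, 2363 and 1344 bases. In FCS/LIF the implied Esrrb length was 2130 and 1938 bases for the +E+N libraries and 1900 and 1865 for −N, against 2539 and 2330 for −E and 2360 and 2423 for −E−N. The 2i/LIF libraries gave 3265, 3005 and 2828 bases for +E+N and 3616, 3126 and 3020 for −N, against 3984, 4011 and 4037 for −E and 4107, 4099 and 4112 for −E−N. In each medium every library without Dox therefore had a longer implied Esrrb transcript than every library with Dox, and the 6 libraries without Dox in 2i/LIF lay at 3984 to 4112 bases, just below the 4196 bases of Esrrb-203.

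**Figure D3:**
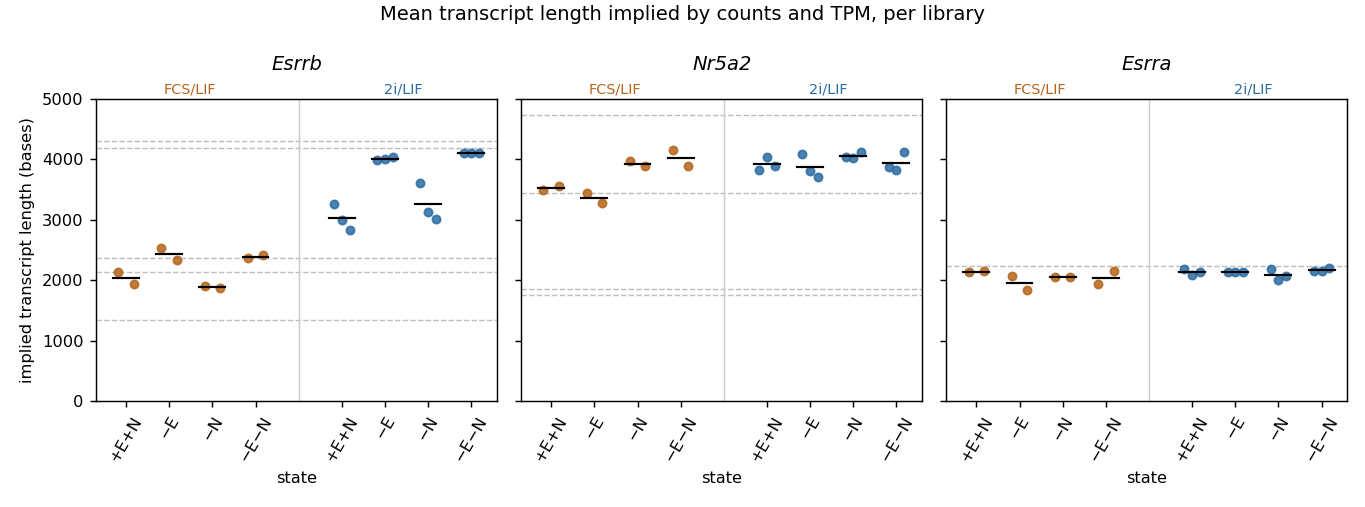
Mean transcript length in bases implied by count and TPM in each library (points) of each state and medium, with group means as black lines and annotated protein-coding transcripts over 1000 bases as dashed lines. Esrrb ran from 1865 to 2539 bases in FCS/LIF and from 2828 to 4112 bases in 2i/LIF, whereas Esrra stayed between 1837 and 2203 bases.

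Among the +E+N libraries, the log2 implied length of Esrrb was 0.66 ± 0.0770 greater in 2i/LIF (limma over 20 libraries, adjusted p = 8.67e-05), in a comparison added after the data were seen in which 16.5% of 11456 genes were called and 13.2% were called longer in 2i/LIF. Within a medium the Esrrb differences of −E against +E+N were +0.30 ± 0.0683 in FCS/LIF and +0.43 ± 0.0718 in 2i/LIF (unadjusted p = 0.00778 and 0.000195). They did not survive adjustment over all genes (limma, adjusted p = 0.615 and 0.341). In fact 0 genes (0%) were called in any of the 10 comparisons within a medium by limma, with 532 to 1098 genes at an unadjusted p under 0.05 per comparison. Nr5a2, whose coding transcripts run from 679 to 4733 bases, had an implied length of 3283 to 3554 bases in the FCS/LIF libraries with intact Nr5a2 alleles and 3887 to 4162 bases in the NrKO libraries, while in 2i/LIF the 2 lines overlapped (3702 to 4095 and 3819 to 4127 bases). Esrra has a single long coding transcript of 2242 bases, and its implied length had the smallest range.

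The balance between the counted mRNAs of the receptors moved with these changes. The Esrrb to Nr5a2 TPM ratio in FCS/LIF was 11.9 and 19.4 for +E+N and 18.5 and 23.2 for −N, against 5.30 and 4.97 for −E and 5.72 and 5.33 for −E−N. The 2i/LIF ratios were 7.62, 11.9 and 13.8 for +E+N, 5.95, 10.8 and 11.5 for −N, 8.70, 8.80 and 8.20 for −E and 3.49, 4.34 and 4.99 for −E−N. The −E and −E−N libraries therefore lay below those with Dox in FCS/LIF, whereas in 2i/LIF −E lay inside the +E+N range and only the −E−N libraries lay below all others.

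The share of Esrra among the Esrr transcripts was higher where Esrrb was lower. Its share of the summed Esrr TPM in FCS/LIF was 6.32 ± 1.61% for +E+N, 8.87 ± 1.01% for −N, 25.9 ± 2.99% for −E and 49.7 ± 3.62% for −E−N (SD, n = 2). In 2i/LIF the shares were 8.85 ± 0.527%, 10.0 ± 0.942%, 15.8 ± 2.26% and 36.0 ± 7.87% in the same order (SD, n = 3). On CPM, which are not scaled to length, the 2i/LIF shares were lower, at 6.18%, 6.36%, 8.56% and 22.1%, in the same rank order. In FCS/LIF −E−N cells the mRNA levels counted for the 2 paralogues overlapped, with an Esrrb to Esrra ratio of 1.12 and 0.913. The Esrrb values include transcripts of the knocked-out locus, and the Nr5a2 values of NrKO cells those of the disrupted alleles. Shares, ratios and sums therefore describe counted mRNA and not functional receptor. The sum of all 5 receptors fell along with Esrrb, from 233 ± 60.5 TPM in +E+N to 39.2 ± 0.926 TPM in −E−N in FCS/LIF, and from 282 ± 45.6 to 77.3 ± 12.8 TPM in 2i/LIF.

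**Figure D4:**
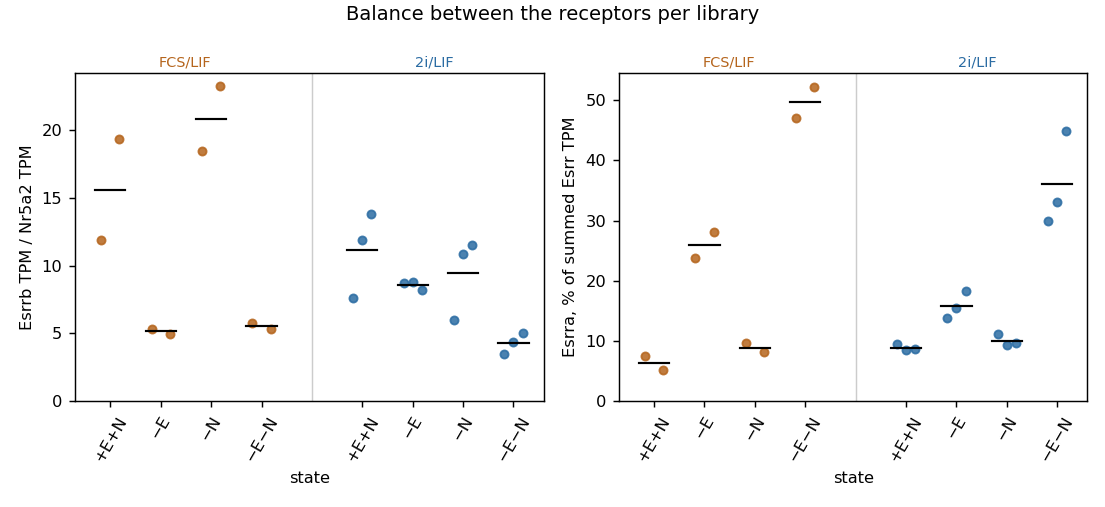
Ratio of Esrrb to Nr5a2 TPM (left) and Esrra as a percentage of the summed Esrr TPM (right) in each library (points) by state and medium, with group means as black lines and both axes from 0. The Esrra share is highest in −E−N in both media, at 47.1 to 52.2% in FCS/LIF and 30.0 to 44.9% in 2i/LIF.

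The level of Esrra itself did not pass the threshold in any of the 10 comparisons between states, with log2 differences from −0.24 to +0.41 by edgeR. In FCS/LIF its −N libraries (25.5 and 25.7 CPM) and −E−N libraries (22.1 and 27.5 CPM) lay above the +E+N libraries (both 21.8 CPM). The −E libraries lay below them, at 18.3 and 19.2 CPM. In TPM the FCS/LIF means were 16.9 in −N and 17.8 in −E−N, against 13.4 in +E+N and 13.85 in −E. In 2i/LIF its +E+N, −E and −E−N groups overlapped, at 34.5 to 41.3, 35.3 to 41.9 and 35.9 to 42.8 CPM. The −N libraries ran from 29.5 to 36.8 CPM, and 2 of the 3 lay below all libraries of the other states. The 95% interval for −E−N against +E+N ran from −0.16 to 0.30 in 2i/LIF and from −0.07 to 0.40 in FCS/LIF, so a log2 difference of 1 lay outside both.

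The remaining paralogues were at the edge of detection. Esrrg had 0 to 6 counts and Nr5a1 0 to 9 counts per library, and 3 counts corresponded to 0.0649 to 0.112 CPM, the level below which a count of 0 cannot be told from a low one. In FCS/LIF, Esrrg had 2 and 3 counts for +E+N, 5 and 3 for −E, 0 and 4 for −N and 5 and 6 for −E−N. Nr5a1 had 3 and 3, 2 and 3, 4 and 6, and 9 and 7 counts in the same order. The −E−N libraries were thus the highest for Nr5a1, while 1 of the −E libraries matched a −E−N library for Esrrg. With no filter on low counts, edgeR gave +1.14 ± 1.10 for Esrrg and +1.42 ± 0.937 for Nr5a1 in −E−N against +E+N (adjusted p = 0.581 and 0.325). In 2i/LIF, Esrrg had 0 to 4 counts and Nr5a1 0 to 4 counts, and Nr5a1 had 0 counts in all 3 −E libraries. Even in the library where it was highest, Nr5a1 stood at 0.11 TPM beside Nr5a2 at 3.36 TPM. An antisense gene overlaps Nr5a1, and Esrrg is overlapped by genes on the opposite strand and by Gm38315 on the same strand. Overlap is not particular to these genes, since Trmt112 on the opposite strand and Mir6990 on the same strand overlap Esrra. The libraries were stranded, and the part of overlapping genes in the counts was not tested. Counts this low are uncertain.

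The genes whose CPM followed each receptor most closely over the 20 libraries, after the mean of each medium was subtracted, are given by Pearson correlation among 10761 genes, as a description. For Esrrb these were Trps1 (0.98), Jam2 (0.98), Klf4 (0.97), Hspa9 (0.97) and Sept1 (0.97). For Nr5a2 they were Tdh (0.96), Cep55 (0.96), Accsl (0.96), Lrrc34 (0.96) and Trps1 (0.95), so Trps1 stood in both lists. Tdh encodes threonine dehydrogenase, an enzyme that mouse ESCs depend on, and Klf4 is a TF of naive pluripotency. For Esrra the highest values were lower, led by Stau1 (0.83), Unc119 (0.83), Kif3a (0.83), Pink1 (0.81) and Ube2f (0.81). Between the receptors themselves the correlation was 0.91 for Esrrb and Nr5a2 (0.95 over 8 FCS/LIF and 0.86 over 12 2i/LIF libraries), −0.11 for Esrrb and Esrra and −0.42 for Nr5a2 and Esrra. All points share the same 4 states and library depths.

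Among 13 coregulators of these receptors, 11 passed the filter in FCS/LIF and 9 in 2i/LIF. Nr0b1 (Dax1), an orphan receptor without a DNA-binding domain that represses Nr5a factors, moved furthest. The FCS/LIF libraries held 37.2 and 38.6 TPM for +E+N, 24.9 and 30.6 for −N, 5.85 and 7.17 for −E and 0.71 and 0.73 for −E−N, with log2 differences of −2.66 ± 0.138 in −E and −5.88 ± 0.185 in −E−N (edgeR, adjusted p = 1.15e-05 and 2.43e-07). In 2i/LIF it ran from 20.0 to 31.4 TPM in +E+N to 0.13 to 0.43 TPM in −E−N (−6.64 ± 0.448, edgeR, adjusted p = 4.27e-07). The interaction for Nr0b1 was −2.72 ± 0.244 in FCS/LIF (edgeR, adjusted p = 0.00572) and −3.27 ± 0.569 in 2i/LIF (edgeR, adjusted p = 0.0181). The FCS/LIF interaction call was lost when any 1 of the +E+N, −E or −E−N libraries was left out (edgeR, adjusted p up to 0.0731).

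The other coregulators moved less. In −E−N against +E+N in FCS/LIF, 3 of the 11 tested were called higher and 2 lower, which were Nr0b1 and Ncoa3, where 18.8% of all genes were called and 6.4% were called lower. The median log2 difference of the list was 0.12 beside 0.00 for all genes. The coactivator Ncoa3 fell by 0.84 on the log2 scale and kept its call with each library left out (edgeR, adjusted p = 3.70e-05). Another coactivator, Ncoa2, went the other way and was called higher, from a mean of 28.3 CPM in +E+N to 44.7 in −E−N. Its call was not followed with libraries left out. The corepressors Nrip1 (+1.04) and Prox1 (+1.03, from 0.12 TPM) rose, but both calls were fragile (edgeR, adjusted p = 0.00438 and 0.00556). Nrip1 lost its call without +E+N replicate 1, +E+N replicate 2 or −E−N replicate 2 (adjusted p up to 0.0343), and Prox1 lost it without any 1 of the +E+N, −E or −E−N libraries (adjusted p up to 0.0367, both edgeR). Nr0b1 was the sole coregulator called in −E in either medium and in −E−N in 2i/LIF, and none was called in −N. Of all genes, 5.76% and 1.55% were called in −E (FCS/LIF and 2i/LIF), 0.173% and 3.65% in −N, and 18.6% in −E−N in 2i/LIF. The 2i/LIF −E call of Nr0b1 was lost without +E+N replicate 1, −E replicate 2 or −E replicate 3 (edgeR, adjusted p up to 0.0179). Between media, Ppargc1b, a coactivator of the Esrr family, was higher in 2i/LIF +E+N cells by 1.17 on the log2 scale (edgeR, adjusted p = 0.000604).

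Among 13 genes of energy metabolism and related processes known as targets of the Esrr family, 12 passed the filter in both media. None was called in −N, where 0.173% of all genes were called in FCS/LIF and 3.65% in 2i/LIF. In −E, 2 were called lower in FCS/LIF, Vegfa (−1.04) and Spp1 (−1.03), and 2 in 2i/LIF, Fabp3 (−2.69) and Cpt1b (−1.25), with edgeR adjusted p between 2.73e-05 and 0.0075, where 5.76% of all genes were called and 2.53% called lower in FCS/LIF, and 1.55% were called in 2i/LIF. Spp1 and Fabp3 kept their calls with each library left out, whereas Vegfa lost its call without any 1 of the +E+N or −E libraries (adjusted p up to 0.0466) and Cpt1b lost its call in 11 of 12 fits (adjusted p up to 0.0395, both edgeR). The median log2 difference of the list was −0.43 for the serum fit and −0.19 for the 2i/LIF fit, beside 0.00 and 0.01 for all genes. Fabp3, a fatty acid-binding protein, had a pattern of its own in 2i/LIF, with 76.8 to 103 TPM in +E+N, 8.21 to 18.1 in −E, 125 to 153 in −N and 150 to 202 in −E−N. It fell in −E, rose in −E−N (+0.87 ± 0.192, edgeR, adjusted p = 0.00306) and had a positive interaction (+2.98 ± 0.286, edgeR, adjusted p = 0.000626). The −E−N call was lost without +E+N replicate 2 or −E−N replicate 3 (edgeR, adjusted p up to 0.0177). In −E−N, 3 genes were called lower in FCS/LIF (Spp1, Acadm and Pdk4, the last of which lost its call without any 1 of the +E+N, −E or −E−N libraries, edgeR, adjusted p up to 0.0476) and 4 in 2i/LIF (Spp1, Cpt1b, Idh3a and Gabpa), where 6.4% and 9.56% of all genes were called lower. Spp1, which encodes osteopontin, fell in −E−N in both media, by 1.90 and 1.52 on the log2 scale, and Acadm, a dehydrogenase of fatty acid oxidation, fell by 0.74 in FCS/LIF (edgeR, adjusted p = 9.46e-07, 7.81e-06 and 0.000377).

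The 15 known targets of the Nr5a family in steroid and bile acid synthesis were mostly silent, and 6 passed the filter in FCS/LIF and 5 in 2i/LIF. None was called in −E or −N in either medium. Of all genes, 5.76% and 1.55% were called in −E (FCS/LIF and 2i/LIF) and 0.173% and 3.65% in −N. The loss of both TFs gave 2 calls higher in FCS/LIF and 2 lower in 2i/LIF, where 18.8% and 18.6% of all genes were called. In −E−N, Cyp11a1, the enzyme that cleaves the cholesterol side chain, was higher in FCS/LIF (from 1.63 and 1.64 TPM to 3.33 and 5.87, log2 +1.40, edgeR, adjusted p = 0.0052) and lower in 2i/LIF (from 0.51 to 2.06 TPM to 0.27 to 0.47, log2 −1.63, edgeR, adjusted p = 0.00821). The difference between these responses was −3.05 (edgeR, adjusted p = 0.00114), and −2.52 without FCS/LIF −E−N replicate 2 (edgeR, adjusted p = 0.0111). The call in FCS/LIF was lost without either +E+N library or without −E−N replicate 2 (adjusted p up to 0.0454), and the one in 2i/LIF in 10 of 12 fits with 1 library left out (adjusted p up to 0.0466, both edgeR). Scarb1, a lipoprotein receptor, was higher in −E−N in FCS/LIF (+0.61, edgeR, adjusted p = 0.000942), and Fdx1, the ferredoxin of steroid synthesis, was lower in 2i/LIF (−0.70, edgeR, adjusted p = 0.00249). Scarb1 dropped below the fold limit without +E+N replicate 2 or −E−N replicate 2 (as low as +0.47), and Fdx1 lost its call without +E+N replicate 3, −E−N replicate 1 or −E−N replicate 2 (edgeR, adjusted p up to 0.0137).

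The RefSeq promoter windows of GRCm38.p6, which run from 250 bases before to 50 bases after a gene start, were searched by the names of the 5 receptors. This gave 9 windows, which are not broken down by receptor here. Neither TCAAGGTCA nor its variant TCAAGGCCA was found on either strand of these 9 windows. The shorter AAGGTCA and AAGGCCA, which they contain, were not found either. Of all 32851 windows, 0.423% hold TCAAGGTCA, 0.591% hold TCAAGGCCA, 4.72% hold AAGGTCA and 6.2% hold AAGGCCA.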

How the data were processed

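The libraries were stranded, poly-A selected, paired-end RNA-seq, which the authors aligned with STAR to mm10 and quantified with RSEM. Versions and the annotation release are not given in the sources used here. The authors deposited estimated counts, written as whole numbers, and TPM per gene for 20 libraries (total counts 26653035 to 45443379). Columns were matched to samples by their titles. The 92 spike-in rows stayed outside the genes named. The members and gene lists were chosen with earlier results of these data known. The ChIP-seq samples were not analysed here.

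Counts were tested with edgeR 4.0.16 (TMM, quasi-likelihood F-test, R 4.3.3), with the 4 states of a medium in one fit and all 20 libraries for comparisons between media. Genes needed at least 20 counts in every library of 1 state. Calls needed an adjusted p under 0.01 and a fold over 1.5 (no fold limit for interactions and differences of responses). Log2(count/TPM), centred on the median gene of each library, was tested with limma 3.58.1 for genes with at least 20 counts and 0.5 TPM throughout. DESeq2 1.42.0, limma on log2(TPM + 1) and log2(TPM + 0.1), DESeq2 size factors, other filters and limits, a replicate block, other sets of libraries in the fit and leaving out each library were alternatives. The implied length in bases and its comparison between media were added after the data were seen. CPM were counts divided by library total and TMM factor over 20 libraries. The edgeR fit and the implied-length fit were tested on simulated data, each for −E against +E+N in FCS/LIF. The other steps were not tested in this way. Replicates of a state differed by far more than sampling noise (chi-square per degree of freedom 4.28 to 28.3). The study describes its replicates as independent experiments, and the labels do not say what their numbers share. List genes were named by size among those called, up to 4 per list and comparison, with Ncoa2 named in addition. Likeness used log2(CPM + 0.5), and took the 5 highest genes among those averaging 100 counts or more in both media.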

Additional observations from a re-analysis of the deposited data

Results flagged for a closer look

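Both results for Esrrb concern a change that differed between the media by a direct test of the difference. The log2 change of Esrrb after Dox withdrawal in Nr5a2-intact cells was −2.18 in serum and −0.46 in 2i/LIF, and the difference was 1.70 (edgeR over 20 libraries, adjusted p = 0.00108). For the loss of both TFs the log2 changes were −3.39 and −1.97, and the difference was 1.39 (edgeR over 20 libraries, adjusted p = 0.000636). Medium and culture cannot be told apart here.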

How the results depend on the processing

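The count of receptors called (of 3) changed under several alternatives in the comparisons listed here, and the cause was not tested. It became 1 in place of 0 for the FCS/LIF interaction with DESeq2 or no filter on low counts, for the 2i/LIF interaction with DESeq2, no filter, an adjusted p under 0.05 or all 20 libraries in one fit (Esrrb each time). It became 1 in place of 2 for FCS/LIF −E−N against −E on log2(TPM + 1), for that comparison and −E against +E+N with all 20 libraries, and for 2i/LIF −E−N against −N on TPM with either pseudocount or with the 2 states alone, and 1 in place of 3 between media on TPM with either pseudocount. For the −E−N response between media it became 2 in place of 1 with no filter or an adjusted p under 0.05, and on TPM with either pseudocount it was 0 for both the −E and the −E−N response.

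Log2 differences changed sign on TPM with pseudocounts of 1 and 0.1 for Esrra in FCS/LIF −E (0.042 and 0.044) and −E−N against −N (0.067 and 0.070), for the −E response of Esrra (−0.036 and −0.038) and the −N response of Esrrb (both −0.15), none of them called on either side. Otx2 in the −E−N response, called lower on counts, was 0.45 and not called with a pseudocount of 1.

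With CPM in place of TPM, the Esrrb to Nr5a2 ratio was 8.29, 3.58, 9.10 and 3.10 in FCS/LIF +E+N, −E, −N and −E−N and 8.92 in 2i/LIF −E. The Esrra percentage of the Esrr sum was 21.3 and 45.0 in FCS/LIF −E and −E−N and 6.18, 8.56, 6.36 and 22.1 in the 4 states of 2i/LIF. Without centring by medium, the 5 genes most like Esrrb, Nr5a2 and Esrra shared 2, 1 and 1 with those named.

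Leaving out single libraries, the count ran from 1 to 2 for FCS/LIF −E−N against −E, 2i/LIF −E−N against −N and the −E−N response, and from 0 to 1 for the −E response. Esrra ran from −0.0089 to 0.30 for FCS/LIF −E−N against +E+N, −0.23 to 0.073 for −E−N against −N, −0.0061 to 0.30 for the FCS/LIF interaction, −0.026 to 0.11 for 2i/LIF −E against +E+N, −0.039 to 0.095 for −E−N against −E and −0.25 to 0.066 for the −E−N response. Nr5a2 ran from −0.15 to 0.050 for 2i/LIF −N, Esrrb from −0.045 to 0.33 for the −N response, and the log2 implied length of Esrrb from −0.10 to 0.036 for FCS/LIF −E−N against −E. In FCS/LIF this leaves a state with 1 library, assumed to vary like the others.

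The labels do not say what the replicate numbers mark. With a replicate block, the count became 1 for 2i/LIF −E (Nr5a2 −0.59, edgeR, adjusted p = 0.00573) and for the 2i/LIF interaction (Esrrb −1.28, adjusted p = 0.00244), and 2 for the −E−N response (Nr5a2 +0.87, adjusted p = 0.00190). Correlations of same-numbered deviations were at or under 0.1 in 1 of 18 pairs in 2i/LIF and 2 of 12 in FCS/LIF, and 34 of 36 and 24 of 24 comparisons of a library with another state were highest for its own number. With 2 libraries per state in FCS/LIF, deviations from the group mean mirror each other, so the FCS/LIF counts repeat only 6 pairs of states.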
